A study of Mus musculus with 2 samples.

Results

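Foxf1a, Foxf2, Foxl1, Six2 and Hand1 are 5 transcription factor genes of the mesenchyme that surrounds the gut and its derivatives. They were chosen by symbol from the 250 genes that the authors called changed between 2 libraries of mouse embryonic pancreas, so they were picked with their difference known, and that difference is described here and not tested. The control library pooled 6 pancreata and the mutant library 12, all taken whole from e12.5 embryos. The mutant genotype is labelled Pdxcre;Gata4fl/fl;Gata6fl/fl: both alleles of Gata4 and of Gata6 were floxed and Cre was driven by Pdx1, and the series title adds Tom. The control animals are labelled as control alone, which does not say whether they carried Cre or floxed alleles. Pdx1 marks epithelium of the pancreas and of the neighbouring antrum and duodenum and is not a gene of mesenchyme. With 1 library per genotype no value has an error and no difference has a replicate check.

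During gut development the endoderm secretes hedgehog ligands, and the adjoining splanchnic mesenchyme answers by expressing forkhead factors of the Foxf and Foxl groups, which take part in forming smooth muscle and the subepithelial stroma. Six2, a homeobox factor, is known in the mesenchyme of the posterior stomach and pylorus as well as in nephron progenitors of the kidney. Hand1, a basic helix-loop-helix factor, acts in lateral mesoderm, heart and sympathetic neurons. In the early pancreas, mesenchyme close to the bud is patterned apart from the mesenchyme of stomach and intestine.

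All 5 genes were higher in the mutant library. Their summed level was 19.9 FPKM in the control and 178 FPKM in the mutant, an 8.92-fold difference, where FPKM is the number of fragments scaled by transcript length and by all mapped fragments of the library. The log2 ratio below is log2((mutant FPKM + 1)/(control FPKM + 1)), and a gene counted as higher or lower where its size reached 1, a 2-fold difference, and 1 library or more reached 1 FPKM. By this rule 5 of 5 members were higher, beside 121 of the 250 genes of the table (48.4%) that were higher and 113 (45.2%) that were lower. The members were chosen on this contrast, so nothing is read from their count. Their median log2 ratio was 3.08, beside 1.11 over the 238 genes that reached the FPKM minimum and 1.81 over the 121 higher genes. At 4-fold on the same scale 3 of the 5 members were higher, beside 50 of 250 genes (20.0%). Centring the ratios on 1.11 gave 38 higher and 114 lower genes in the table and left Foxf2, Six2 and Foxf1a as the higher members. The table holds called genes alone, so 1.11 does not measure a shift between the libraries. Centring is thus a stricter limit for higher genes and not a normalization. In bulk tissue, more cells of a type and more RNA per cell cannot be told apart.

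**Figure D1:**
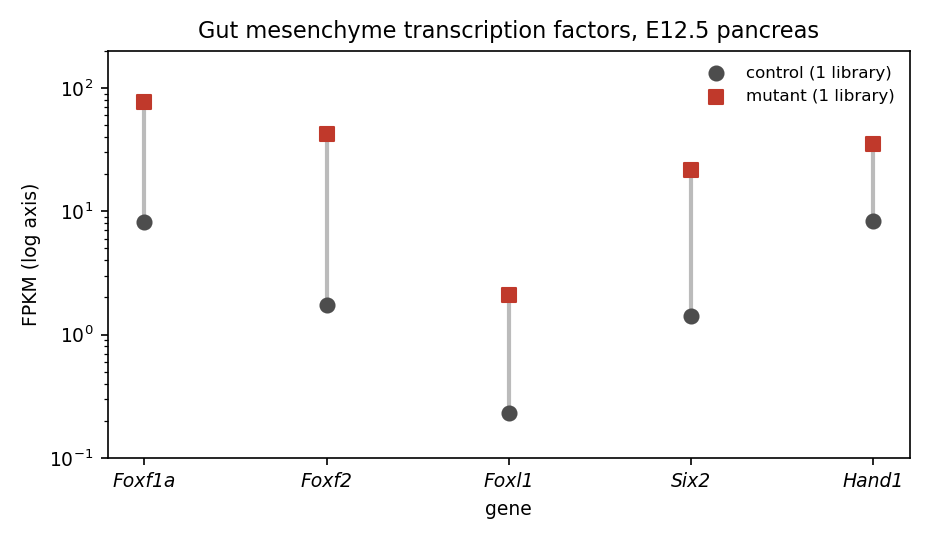
FPKM of each gene on a log axis in the control library (grey circles) and the mutant library (red squares), 1 library each. The mutant value lies above the control value for all 5 genes, with the longest step for Foxf2, from 1.73 to 42.0, and the shortest for Hand1, from 8.34 to 35.3.

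Foxf1a, the forkhead gene also named Foxf1 that is needed for splanchnic mesenchyme and its vessels, had the highest mutant level of the 5, at 8.17 FPKM in the control and 76.6 FPKM in the mutant. This was a 9.36-fold difference and a log2 ratio of 3.08, and its mutant level was the 6th highest of the 250 genes. On mm9 the table places it on chromosome 8, 123608374 to 123610779, plus strand. These ends are those of a GENCODE vM1 transcript of 2 exons and 1062 bases, so fragments beyond that short model would not have entered its FPKM if the authors used the same model.

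Foxf2, the paralogue of Foxf1a in gut mesenchyme, was at 1.73 FPKM in the control and 42.0 FPKM in the mutant. Its 24.3-fold difference was the largest among the members, and its log2 ratio of 3.98 was the highest of the 250 genes. This rank depends on the 1 FPKM added to each value. By the deposited log2 fold change, which adds nothing, genes of low control level stood above the 4.60 of Foxf2. Clca3, at 8.35, and Actc1, at 6.31, are examples. The 2 exons of Foxf2 lie on chromosome 13, 31717685 to 31723275, plus strand. Foxf1a exceeded Foxf2 by 4.72-fold in the control and by 1.82-fold in the mutant, so the levels of these paralogues were closer together in the mutant library.

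Foxl1, a forkhead gene of the mesenchymal cells just beneath the gut epithelium, was the lowest of the 5 in both libraries. It stood at 0.231 FPKM in the control and 2.07 FPKM in the mutant, an 8.98-fold difference with a log2 ratio of 1.32. Its locus is on chromosome 8, 123651585 to 123654544, plus strand, a stretch of 2960 bases. Over that length the control value amounts to 13.7 fragments if 20000000 were mapped in that library, the lower limit that the labels give for mapped reads. Foxl1 was no longer called with a pseudocount of 5, where its log2 ratio was 0.44, after centring, where it was 0.21, when the FPKM minimum was set to 5, or when both libraries had to reach 1 FPKM. The GENCODE vM1 annotation of this build lists Foxl1 as a pseudogene in 3 pieces, while RefSeq lists it as protein-coding. Foxf1a exceeded Foxl1 by 35.4-fold in the control and by 36.9-fold in the mutant.

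Six2 was at 1.42 FPKM in the control and 21.6 FPKM in the mutant, a 15.2-fold difference. Its log2 ratio was 3.22, the 4th highest of the table with the added 1 FPKM. Six2 lies on chromosome 17, 86083608 to 86087594, minus strand, and the GENCODE vM1 transcript with the same ends has 2 exons.

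Hand1 had the highest control level and the smallest plain fold of the 5, at 8.34 FPKM in the control and 35.3 FPKM in the mutant. The difference was 4.23-fold, with a log2 ratio of 1.96, which was larger than that of Foxl1, and it was not called after centring, at 0.84. Hand1 lies on chromosome 11, 57642215 to 57645649, minus strand. Its relative Hand2 is outside the table, as are Gata4 and Gata6, so the genotype could not be checked against the targeted genes. Foxf1a was 0.980 times Hand1 in the control and 2.17 times Hand1 in the mutant.

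The order of levels in the control was Hand1, Foxf1a, Foxf2, Six2 and Foxl1, and in the mutant it was Foxf1a, Foxf2, Hand1, Six2 and Foxl1. Hand1 gave 41.9% of the summed FPKM of the 5 genes in the control and 19.9% in the mutant. Foxf2 gave 8.70% and 23.7%, and Foxf1a 41.1% and 43.1%. No replicate spread is available to say which neighbours in either order differ. The fold of Foxf2 exceeded that of Hand1 by 5.74 times.

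In the authors' deposited table, where the 250 called genes make up 1.67% of an estimated 14984 tested, q was 7.99e-12 for Foxf2, 1.41e-07 for Six2, 4.09e-07 for Foxf1a, 9.37e-04 for Hand1 and 0.00652 for Foxl1. The p-values of that table follow from its test statistic as a two-sided normal deviate, within 0.421% over the 184 genes with p above 1e-06. If the statistic is the log2 fold change divided by its standard error, the error it implies was smallest for Hand1, at 0.46 on the log2 scale, and largest for Foxl1, at 0.79, beside a median of 0.60 over the table. For Foxf1a, Foxf2 and Six2 it was 0.53, 0.58 and 0.62. With 1 pool per genotype, such errors come from the authors' model and not from differences seen between replicates.

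**Figure D2:**
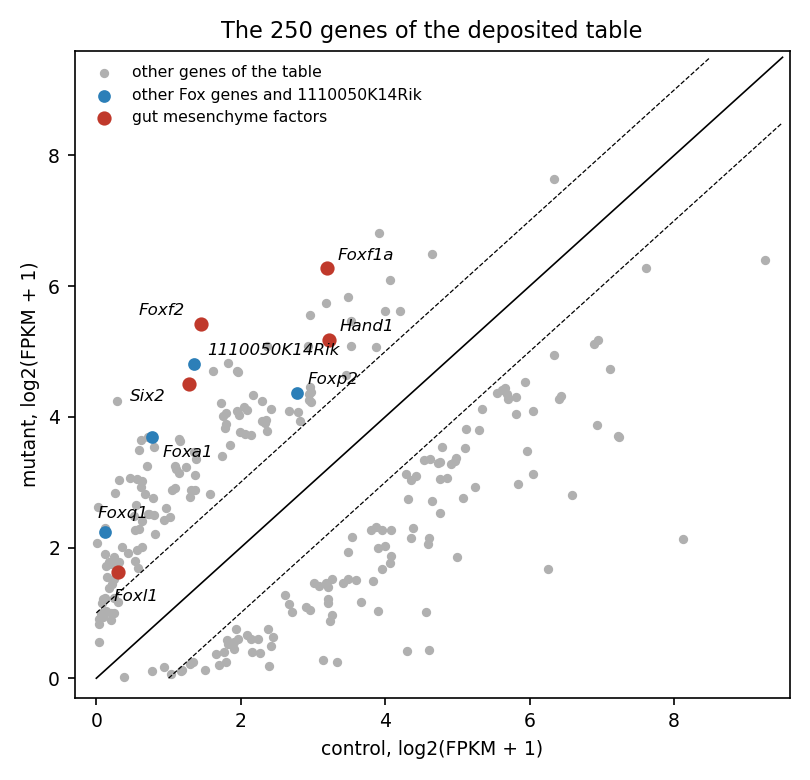
Level in the mutant library against level in the control library, both as log2(FPKM + 1), for the 250 genes of the table (1 point a gene). Red points are the 5 factors, blue points the other Fox genes and 1110050K14Rik, the solid line marks equal levels and the dashed lines a 2-fold difference. Foxf2, Six2 and Foxf1a lie at the upper left edge of the higher genes, while Foxl1 lies near the origin, just beyond the dashed line.

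The table also holds genes next to these factors. The nearest was 1110050K14Rik, which RefSeq names Fendrr, a long noncoding RNA known from lateral plate mesoderm and needed for heart and body wall development in the mouse. It lies on chromosome 8, 123578782 to 123606932, on the strand opposite to Foxf1a, with its near end 1442 bases from the Foxf1a locus. It was at 1.56 FPKM in the control and 27.1 FPKM in the mutant, a 17.3-fold difference. It had a log2 ratio of 3.45, the 3rd highest of the table with the added 1 FPKM. In the authors' deposited table its q was 4.41e-09. The sources used here do not say whether counting used the strand, and the loci of Foxf1a and 1110050K14Rik do not overlap each other. All of 1110050K14Rik, Foxf1a and Foxl1 lie inside Gm20388, a gene model of 4435 kb in GENCODE vM1.

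Foxl1 lies 40806 bases beyond Foxf1a in the same cluster. The coding genes between them, Mthfsd and the forkhead gene Foxc2, are outside the table. On chromosome 13 the forkhead gene Foxq1 lies 64842 bases before Foxf2 with no coding gene between them. Foxq1, known in stomach epithelium, was at 0.0918 FPKM in the control and 3.69 FPKM in the mutant, with a log2 ratio of 2.10, and its locus overlaps A530084C06Rik. Foxc1, on the other side of Foxf2, is outside the table. Genes outside the table were either not tested or not called. Six2 and Hand1 had no other gene of the table within 500 kb. Of the 5 members 3 had such a neighbour, beside 66 of all 250 genes (26.4%).

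**Figure D3:**
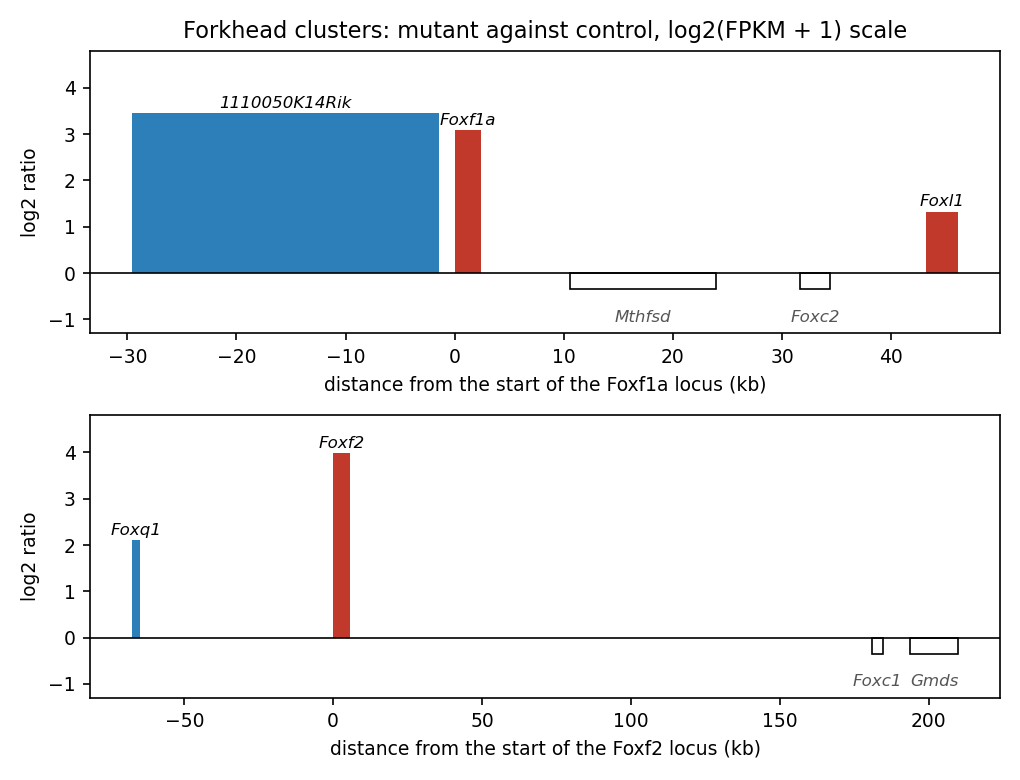
Log2 ratio of mutant to control (bar height, log2(FPKM + 1) scale) for genes of the table around Foxf1a (top) and Foxf2 (bottom), against the distance from the start of each locus in kb; bar width is the length of the locus. Red bars are Foxf1a, Foxl1 and Foxf2, blue bars are 1110050K14Rik and Foxq1, and open boxes below the line are named coding genes outside the table, drawn without a value. The bars of 1110050K14Rik and Foxf1a stand side by side at 3.45 and 3.08, while Foxc2 and Foxc1 have none.

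Promoter windows, from 250 bases before to 50 bases after the start of the RefSeq gene, were at hand for 2 of the 5 members, Foxf2 and Six2, and for Fendrr. Windows were looked up for the members, Fendrr and Foxq1, and every window found is shown. None was found for Foxf1a, Foxl1, Hand1 and Foxq1. Foxf2, Fendrr and Six2 had 3 of the 4 highest log2 ratios of the table, ranks that depend on the added 1 FPKM. The sequences are RefSeq's on GRCm38.p6, a later build than the mm9 of the table, and run 5′ to 3′ on the strand of the gene. Capitals mark a match to any of 3 motifs, each searched on both strands. The core of the motif of the Gli factors, which act in the hedgehog pathway, was searched as ACCACCC. The forkhead motif was searched as TGTTTAC, and the motif of the zinc finger factors to which Gata4 and Gata6 belong was searched as AGATAA.
Foxf2, chr13:31625566-31625865, plus strand: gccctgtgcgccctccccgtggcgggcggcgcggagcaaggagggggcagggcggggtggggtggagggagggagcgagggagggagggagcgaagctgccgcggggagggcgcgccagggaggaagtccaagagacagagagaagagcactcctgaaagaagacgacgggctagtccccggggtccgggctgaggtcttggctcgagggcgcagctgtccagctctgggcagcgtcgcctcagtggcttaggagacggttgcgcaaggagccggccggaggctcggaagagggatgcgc
Six2, chr17:85688205-85688504, minus strand: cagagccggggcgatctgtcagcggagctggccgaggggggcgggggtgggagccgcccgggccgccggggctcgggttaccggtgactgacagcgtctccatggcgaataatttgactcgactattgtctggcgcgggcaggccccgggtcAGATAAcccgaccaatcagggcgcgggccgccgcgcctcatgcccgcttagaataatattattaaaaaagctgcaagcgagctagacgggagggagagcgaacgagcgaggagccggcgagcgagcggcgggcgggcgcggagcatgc
Fendrr, chr8:121083061-121083360, minus strand: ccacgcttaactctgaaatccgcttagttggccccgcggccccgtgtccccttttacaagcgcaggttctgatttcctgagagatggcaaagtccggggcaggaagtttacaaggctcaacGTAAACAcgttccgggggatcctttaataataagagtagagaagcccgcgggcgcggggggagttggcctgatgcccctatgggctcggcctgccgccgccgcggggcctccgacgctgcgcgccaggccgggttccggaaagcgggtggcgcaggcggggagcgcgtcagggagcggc
The Six2 window holds AGATAA, starting 98 bases before the start of the gene, as 11.2% of all 32851 promoter windows do on either strand. The Fendrr window holds the forkhead letters on the other strand, starting 129 bases before the start, as 3.65% of all windows do. The Gli core, in 4.61% of all windows, is in none of the 3, and none of the motifs is in the Foxf2 window. Matches are letters alone and do not show binding. G and C made up 71.3% of the Foxf2 window, 67.3% of that of Six2 and 64.7% of that of Fendrr. All 3 were above the median of 52.7% over all windows, and Foxf2 alone was above the 90th percentile of 69.6%.

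Of the 41 annotated forkhead genes that are not members, 3 were in the table and all 3 were higher, beside 48.4% of the table that was higher and 1.67% of tested genes that were called. Beside Foxq1 these were Foxa1, a factor of the whole gut endoderm, at 0.711 FPKM in the control and 12.0 FPKM in the mutant, and Foxp2, a factor of lung and gut among other organs, at 5.84 against 19.6 FPKM. After centring, 1 of the 3 that are not members was still called, and 1 was when both libraries had to reach 1 FPKM.

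Other transcription factors of foregut and trunk mesenchyme did not share one direction. Over all 250 genes 48.4% were higher and 45.2% lower, so a mixed direction is not particular to this list. The list was chosen with earlier results of these data known, and its counts were not tested. Of 44 annotated genes of this list that are not members, 6 were in the table, with 2 higher, 3 lower and 1 not called, and a median log2 ratio of −0.86. The higher genes were Foxp2 and the zinc finger homeobox gene Zfhx4, at 6.70 against 18.1 FPKM. The lower genes were Tlx1, which is needed to form the spleen, at 23.4 against 0.353 FPKM, the mesothelial and splenic factor Wt1, at 26.2 against 4.79 FPKM, and Prrx1, a homeobox factor of limb and trunk mesenchyme, at 7.77 against 0.208 FPKM. Barx1 and Nkx3-2, further factors of stomach mesenchyme, and Isl1 and Nkx2-5 were outside the table. When both libraries had to reach 1 FPKM, 1 of the 3 lower genes was called, and after centring 0 of the 2 higher ones were. Tlx1 and Prrx1 dropped out through their mutant values alone, which were under 1 FPKM.

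Among hedgehog genes, whose signal these forkhead genes are known to answer in gut mesenchyme, 7 of 18 annotated were in the table, with 6 higher, 1 lower and a median log2 ratio of 2.61. For this list and those below, 48.4% of the table was higher, 45.2% was lower and 1.67% of tested genes were called. The lists were chosen with earlier results of these data known, so their counts are descriptions and were not tested. The ligand genes were Shh, at 0.248 against 7.17 FPKM, and Ihh, at 0.533 against 11.5 FPKM. The receptor gene Ptch1 was at 6.76 against 46.3 FPKM. Gli1, a transcription factor that the pathway switches on, was at 2.55 against 27.4 FPKM, a 10.7-fold difference. The fold was 6.84 for Ptch1 and 6.01 for Hhip, beside 24.3 for Foxf2, 9.36 for Foxf1a and 8.98 for Foxl1. The antagonist gene Hhip was at 1.06 against 6.37 FPKM, and Scube1, a secreted protein of the family that helps to release the ligands, was lower at 7.04 against 1.73 FPKM. When both libraries had to reach 1 FPKM, 3 of the 6 higher genes were called.

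Smooth muscle genes, of the tissue that gut mesenchyme forms, were in the table for 9 of 19 annotated, with 8 higher and 1 lower and a median log2 ratio of 1.95. Hhip is counted in this list and in the hedgehog list. Myocd, the coactivator of the smooth muscle programme, was at 0.739 FPKM in the control and 10.6 FPKM in the mutant. Synpo2, an actin-binding protein, was at 2.85 against 25.0 FPKM, and the visceral actin gene Actg2 at 8.10 against 52.4 FPKM. Des, the muscle intermediate filament, was lower at 33.4 against 10.5 FPKM. After centring 3 of the 8 higher genes were called. Mesenchymal signals were in the table for 6 of 29 annotated, with 5 higher, 1 lower and a median log2 ratio of 2.32. Grem1, a Bmp antagonist, was at 0.649 against 11.9 FPKM, Aldh1a2, which makes retinoic acid, at 14.1 against 110.9 FPKM, the Wnt antagonist Sfrp5 at 2.30 against 17.5 FPKM, and the ligand Wnt5a was lower at 15.7 against 2.39 FPKM.

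Markers of other tissues differed in the same comparison, and their part in the differences of the 5 factors was not tested. Gut epithelial markers were in the table for 8 of 17 annotated, all 8 higher, with a summed level of 3.46 FPKM in the control and 55.6 FPKM in the mutant. Shh, Ihh and Foxq1 are among the 8 and were described above, so the lists are not separate. Of the others, Cdx2, the intestinal homeobox factor, was at 0.506 against 10.2 FPKM and Nkx6-3, a factor of the antrum, at 0.379 against 7.35 FPKM. Markers of neural crest and neurons, beside Hand1, were in the table for 8 of 18 annotated, all 8 higher, with a sum of 20.8 against 105.9 FPKM. They include Dbh, which makes noradrenaline, at 1.15 against 8.17 FPKM, and Tubb3 and Ret. Skeletal muscle markers were in the table for 6 of 19 annotated, all 6 higher, with a sum of 1.09 against 36.6 FPKM. Actc1, a striated muscle actin, was at 0.224 against 17.8 FPKM and the myogenic factor Myog at 0.0209 against 5.11 FPKM.

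Of the cardiac markers beside Hand1, Myh7 was the 1 gene present of 14 annotated, at 0.0249 against 0.864 FPKM and under the minimum. Of the nephron progenitor markers beside Six2, 2 of 12 annotated were present, with Gdnf, which is also on the list of mesenchymal signals, higher at 3.43 against 12.2 FPKM and Wt1 lower, while Cited1, Pax2 and Sall1 were outside the table. Of a list of 15 genes of mesenchyme near the pancreas 2 were present, Tlx1 and Prrx1, which are those already counted among the lower mesenchyme factors and are not particular to pancreatic mesenchyme. The general stromal genes Vim, Col1a1, Col3a1, Pdgfra and Pdgfrb of that list were outside the table. Of the pancreatic bud epithelium markers 3 of 14 were present and all 3 were lower, with a sum of 898 against 86.8 FPKM. These were Cpa1, a carboxypeptidase of tip progenitors and acinar cells, at 277 against 3.39 FPKM, Neurog3, the endocrine commitment factor, at 9.06 against 0.186 FPKM, and the glucagon gene Gcg at 612 against 83.2 FPKM. The labelled tissue was thus marked in the control library by Cpa1 and Gcg, while Pdx1 and Ptf1a are outside the table and have no value here.

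**Figure D4:**
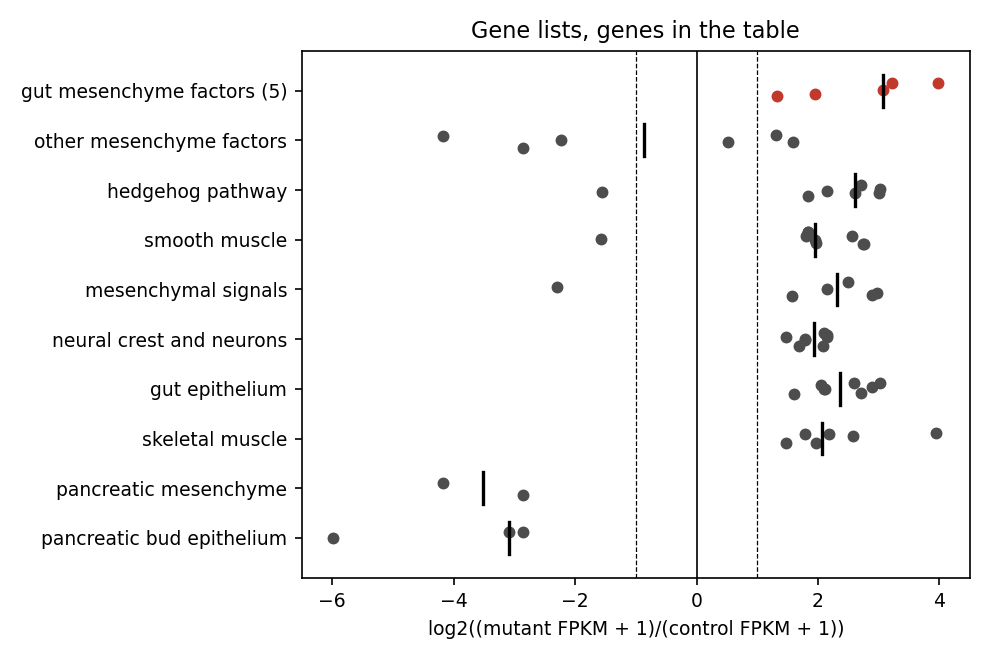
Log2 ratio of mutant to control on the log2(FPKM + 1) scale for genes of each list that are in the table (1 point a gene, spread vertically for display), with a black bar at the median and dashed lines at a 2-fold difference. The 5 factors, in red, run from 1.32 to 3.98 and are left out of the other lists, in grey. The other mesenchyme factors lie on both sides of 0, and the genes listed for pancreatic mesenchyme (Tlx1 and Prrx1, also among the other mesenchyme factors) and bud epithelium lie below it.

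The genes with the most similar pair of levels were found by the distance between genes in log2(FPKM + 1) over the 2 libraries. The gene nearest to Six2 and to Foxf2 was 1110050K14Rik, at distances of 0.32 and 0.62. Next came Colec10, a collectin, and Sfrp5 for Six2, at 0.39 and 0.53, and Gli1 and Colec10 for Foxf2, at 0.71 and 0.74. The nearest to Foxf1a were Mab21l2, Actg2 and Ptch1, at 0.54, 0.54 and 0.75. For Hand1 they were Tubb3, Chst15 and Pde5a, at 0.31, 0.32 and 0.41. For Foxl1 they were Actn2, Col6a4 and Myod1, at 0.10, 0.11 and 0.16, among the many genes of low level. Colec10 was at 2.05 FPKM in the control and 25.1 FPKM in the mutant, and Mab21l2 at 10.2 against 55.7 FPKM. With 2 libraries this likeness describes 2 values a gene.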

How the data were processed

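Total RNA of 1 control and 1 mutant pool was sequenced. Per the labels' protocols, RNA integrity was above 8 and libraries were Illumina TruSeq. Reads were aligned with TopHat 2.0.4 to mm9, allowing 4 mismatches and 10 hits, with over 20000000 mapped, per the labels. The submitters' processing notes name CASAVA 1.8.2, Cufflinks and DESeq. The sources used here do not give the transcript annotation or say whether strand was used. Because multiple hits were allowed, close paralogues could share reads.

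The authors deposited 1 table of 250 called genes, with an FPKM value per library, a log2 fold change without pseudocount, a test statistic (a score of opposite sign) and a p-value and q-value. Per the labels, the authors used DESeq for the calls, while the column names are those of Cuffdiff. The number of tested genes, 14984, was estimated as the median of q times rank over p for 96 genes with p above 1e-04 (range 14837 to 14984).

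Log2 ratios used a pseudocount of 1, which understates changes of low genes. With 1 library per group no test was run. Named genes are the members, Gata4 and Gata6, all genes of the Fox, Six2 and Hand families, mesenchyme factors and hedgehog genes of the table, up to 4 genes of each other list by size of ratio, rows within 500 kb of a member and the 3 nearest in level. Some further names were picked with their values in view. The members and lists were chosen with earlier results of these data known. List sizes count symbols annotated in GENCODE vM1, which is on the same build. Alternatives were pseudocounts of 0.1 and 5, centring, other FPKM minimums, a 4-fold rule, q of at most 0.01 and the deposited fold change. A few genes under this rule enter counts only and are not named. Calculations used Python 3.11.15, pandas 2.3.3 and numpy 2.4.6. The code for ratios and calls was checked by recovering differences written into the control values without noise. That check says nothing on the precision of the data.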

Additional observations from a re-analysis of the deposited data

How the results depend on the processing

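No paired analysis was possible because there was 1 library per genotype, and for the same reason no library could be left out. All 5 members had a positive log2 ratio under each alternative run, between 0.21 and 4.60. Pseudocounts and the deposited fold change cannot turn a direction by construction. The FPKM minimums, the 4-fold rule and the q limit leave each ratio as it was, so centring alone could have turned one. The count of higher members was 3 in place of 5 after centring and at 4-fold, and 4 or 5 under the others. The median of the members could move only with the pseudocounts, centring and the deposited fold change. It was 3.21 and 2.05 with pseudocounts of 0.1 and 5, 1.97 after centring and 3.23 by the deposited fold change. The number of neighbours within 500 kb was the same at 100 and 1000 kb. A count was taken as close within 1.5 times. The other lists are counted here without the members. With a pseudocount of 5, higher counts were 1 of 2 mesenchyme factors, 5 of 8 smooth muscle, 5 of 8 gut epithelial and 2 of 6 skeletal muscle genes, and the 1 lower hedgehog gene became 0. With centring they were 0 of 2 mesenchyme factors, 3 of 8 smooth muscle, 4 of 8 gut epithelial, 3 of 6 skeletal muscle, 2 of 8 neural and 0 of 1 nephron progenitor genes, and 1 of 3 Fox genes. A minimum of 5 FPKM left 5 gut epithelial and 2 skeletal muscle genes. With 1 FPKM in both libraries, 1 of 3 lower mesenchyme factors, 0 of 2 lower genes of the list of mesenchyme near the pancreas, 3 of 6 higher hedgehog, 5 of 8 smooth muscle, 1 of 8 gut epithelial, 0 of 6 skeletal muscle and 1 of 3 Fox genes were called. At 4-fold, 0 of 2 mesenchyme factors, 3 of 8 smooth muscle, 3 of 6 skeletal muscle, 4 of 8 neural and 0 of 1 nephron progenitor genes were higher, and the 1 lower hedgehog gene and the 1 lower smooth muscle gene became 0. With q of at most 0.01, 1 of 2 mesenchyme factors and 0 of 1 nephron progenitor genes were higher. By construction these alternatives shrink or remove genes of low level in 1 library or in both, shift all ratios alike or set a stricter limit. Requiring 1 FPKM in both libraries removed Tlx1, at 23.4 against 0.353 FPKM, and Prrx1, at 7.77 against 0.208 FPKM. Their mutant level alone was under that limit, so their loss from the count does not mark a small difference. The control values of Foxl1, of all 6 skeletal muscle genes and of all gut epithelial genes but Krt20 were under 1 FPKM, where few fragments set the precision.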

Other observations

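Further transcription factor genes of the table that are on none of the lists, chosen after their values were seen, also differed between the libraries. Tlx2, a homeobox factor of enteric neurons, was at 3.14 FPKM in the control and 16.8 FPKM in the mutant. Hoxd3 was at 1.12 against 6.52 FPKM and Dlx2 at 0.959 against 5.05 FPKM. Lhx9, a homeobox factor of the gonad and of other mesenchyme, was lower, at 4.25 against 0.142 FPKM.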
